A study of Mus musculus with 15 samples.

Results

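The genes described here are the receptors for the myeloid growth factors and 1 of their ligands: *Csf1r*, *Csf1*, *Csf2ra*, *Csf2rb*, *Csf2rb2*, *Csf3r* and *Flt3*. They were chosen by symbol, matched to the Ensembl identifiers of the count table, and all 7 were found among its 19456 genes. RNA was sequenced from sorted cells of adult male wild-type C57BL/6 mice that carried no transgene and received no treatment. The 15 libraries were from Ly6Chi blood monocytes (n = 3) and from 3 populations of small intestinal macrophages separated by the surface proteins Tim-4 and CD4: Tim-4-CD4- (n = 4), Tim-4-CD4+ (n = 4) and Tim-4+CD4+ (n = 4). Libraries of the same population were separate sorts of pooled cells. They came from 4 mice for replicate 2 of the monocytes and from 3 mice for all others. Whether libraries of different macrophage populations came from the same mice is not given in the sources used here. The study counts 4 independent sorts for the macrophages and does not say whether each gave all 3 populations. Where values of the macrophage populations follow each other without a name, they are in the order given here. The macrophages were gated as CD64+ MHCII+ Ly6C- cells. For the sort, unlike in the flow cytometry of the study, cells were not first gated on CD11c, and Ly6C was excluded with the lineage markers. The tissue was digested with enzymes, which the blood cells did not undergo. Tissue and preparation therefore cannot be told apart in comparisons of macrophages with monocytes. An antibody to CD115, the protein made from *Csf1r*, was part of the staining panel. Whether it was used to sort the monocytes is not given in the sources used here.

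CSF-1, made from *Csf1*, binds the receptor tyrosine kinase CSF1R, and most tissue macrophages depend on that signal for survival. GM-CSF binds an alpha chain made from *Csf2ra*, which signals through the common beta chain made from *Csf2rb*. IL-3 and IL-5 use the same beta chain with alpha chains of their own. Mice carry an additional beta chain gene, *Csf2rb2*, whose product pairs with the IL-3 alpha chain. G-CSF binds the receptor made from *Csf3r*, best known for its part in neutrophil production, and FLT3 ligand binds the kinase receptor made from *Flt3*, which is used by early progenitors and by dendritic cells. In the small intestine, the study found replacement from blood monocytes to be fast for Tim-4-CD4-, slow for Tim-4-CD4+ and rare for Tim-4+CD4+ macrophages. Dendritic cells lie beside the macrophages in the lamina propria.

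*Csf2rb* and *Csf2rb2* lie near each other on chromosome 15 and are close copies, which matters for counts of reads. In the annotation of GRCm38, *Csf2rb* (ENSMUSG00000071713.4) is at chr15:78325752-78353847 on the forward strand, and *Csf2rb2* (ENSMUSG00000071714.5) is at chr15:78282507-78305721 on the reverse strand. Their coding sequences of 2691 and 2637 bases were aligned, and 2505 of 2631 aligned bases, or 95.2%, were the same. Coding windows of 120 bases, each within 1 exon, with the fewest and the most differences are shown to let the likeness be seen. The bases in capitals are those that differ between the genes. In the first pair there are 0 differences, from coding base 2083 to 2202 of both genes (chr15:78348577-78348696, forward strand, and chr15:78284752-78284871, reverse strand). In the other pair there are 16 differences, from coding base 278 to 397 of *Csf2rb* (chr15:78338867-78338986) and from 281 to 400 of *Csf2rb2* (chr15:78294345-78294464).
Csf2rb, no differences: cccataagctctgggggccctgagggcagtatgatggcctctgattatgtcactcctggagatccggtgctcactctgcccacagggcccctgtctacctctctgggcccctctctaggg
Csf2rb2, no differences: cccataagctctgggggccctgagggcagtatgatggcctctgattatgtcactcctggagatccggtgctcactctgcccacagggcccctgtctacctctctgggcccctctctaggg
Csf2rb, most differences: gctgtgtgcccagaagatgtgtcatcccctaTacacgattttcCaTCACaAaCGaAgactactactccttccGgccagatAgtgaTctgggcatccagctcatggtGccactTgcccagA
Csf2rb2, most differences: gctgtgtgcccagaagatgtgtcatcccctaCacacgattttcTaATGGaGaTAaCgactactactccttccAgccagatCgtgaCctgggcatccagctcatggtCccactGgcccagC

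A read of the length used in the study is 65 bases. Of all different 65-base windows in the annotated transcripts, 634 were shared by both genes, which was 8.74% of the windows of *Csf2rb* and 13% of those of *Csf2rb2*. Reads were sequenced in pairs. A pair with both reads inside such windows maps to more than 1 place, and the deposited counts hold uniquely mapped reads only. The counts of both genes therefore come from pairs with at least 1 read in a part that differs, and the split between them is less certain than for the other genes. *Csf1r* (ENSMUSG00000024621.15, chr18:61100598-61132149, forward strand) shares 873 exonic bases with *Hmgxb3* on the other strand, so that the strand setting of the count, which is not given in the sources used here, could move reads between these genes. *Hmgxb3* had 39255 reads over all 15 libraries, whereas *Csf1r* had at least 118335 in each library.

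The other genes were placed as follows. *Csf1* (ENSMUSG00000014599.10) is at chr3:107741048-107760469 on the reverse strand. *Csf2ra* (ENSMUSG00000059326.6) is at chr19:61223957-61228429 on the reverse strand. *Csf3r* (ENSMUSG00000028859.14) is at chr4:126024550-126044440 on the forward strand. *Flt3* (ENSMUSG00000042817.15) is at chr5:147330741-147400489 on the reverse strand. None of the 65-base windows of *Csf1*, *Csf2ra* or *Flt3* occurred in the transcripts of another gene. Of the 3691 windows of *Csf3r*, 179 (4.85%) did.

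The total count on genes was between 39388763 and 151510641 per library, with a median of 63249039, so that counting error is small for all of these genes except *Flt3* in the CD4+ populations, with 24 to 88 reads per library. Macrophage markers summed to between 20730.0 and 28064 CPM (read counts scaled to the size of the library) in the macrophage libraries and to between 1718 and 2121 CPM in monocytes. Blood monocyte markers summed to between 14520.4 and 17417 CPM in monocytes, and all 9 macrophage and all 8 monocyte markers were detected in every population. B and plasma cell markers summed to between 2222 and 5402 CPM in the macrophage libraries. Replicate 3 of Tim-4-CD4- macrophages stood apart in some dendritic cell genes and, of the 6 listed epithelial markers, in *Epcam* and *Cdh1*. Replicate 1 of Tim-4+CD4+ macrophages differed most from the others of its population. Values that move with either library are also given without it. In bulk RNA, fewer cells that express a gene and less RNA per cell cannot be told apart.

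*Csf1r* was the most abundant of these transcripts in every population and was higher in each macrophage population than in monocytes. In monocytes the CPM were 2281, 2199.9 and 2199 (mean ± SD 2227 ± 47.3, n = 3). They were 4427, 4371, 4029 and 4271 in Tim-4-CD4- macrophages (4274 ± 176, n = 4). In Tim-4-CD4+ macrophages the CPM were 5925, 6143, 5844 and 6772 (6171 ± 420.3, n = 4). In Tim-4+CD4+ macrophages the CPM were 6945, 6679.9, 6425 and 6657 (6677 ± 213, n = 4). The libraries of monocytes, of Tim-4-CD4- macrophages and of the CD4+ populations formed 3 separate ranges, while those of the 2 CD4+ populations overlapped. Relative to length, *Csf1r* ranked 81 of 19421 genes in monocytes and 49, 30 and 27 in the 3 macrophage populations.

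The fold change of *Csf1r* over monocytes was 1.92, 2.77 and 3.0 in the 3 macrophage populations (log2 0.94, 1.47 and 1.58, SE 0.08 for each). In edgeR's quasi-likelihood test, with Benjamini-Hochberg adjustment over 15802 genes, the adjusted p-values were 1.3e-08, 4.2e-11 and 1.5e-11. Among macrophages without Tim-4, *Csf1r* was higher in those with CD4 than in those without it (log2 0.53, SE 0.07, adjusted p = 9.3e-05 in the same edgeR test). In macrophages with both proteins it exceeded the level of those with neither by 0.64 (SE 0.07, adjusted p = 3.7e-06). Between the CD4+ populations it was 0.11 (SE 0.07, adjusted p = 0.48), which did not pass the threshold of 0.05. The sum of 8 mesenchymal and endothelial markers, all detected in the macrophages, was between 175 and 192, between 249 and 294 and between 384 and 483 CPM in the 3 macrophage populations. Most of it was *Pecam1*, which myeloid cells also express, at 104 ± 1.77, 185 ± 18.5 and 305 ± 24.4 CPM. The endothelial genes *Kdr* (4.89 ± 3.64, 2.37 ± 1.47 and 4.19 ± 1.13 CPM) and *Cdh5* (4.58 ± 1.35, 3.33 ± 1.16 and 5.24 ± 0.996 CPM) had their lowest mean in the middle population. *Col1a1* was at 19.4 ± 5.45, 20.5 ± 3.54 and 32 ± 6.11 CPM. The means of *Col1a1*, *Col3a1*, *Pdgfra*, *Dcn* and *Vwf* all rose in the order of the populations. Of the 8 markers, 4 were higher and 0 lower with both proteins than with neither (edgeR, backgrounds 11.3% and 11.9%). With CD4 alone 1 was higher and 0 lower (backgrounds 4.52% and 5.53%). The part of mesenchymal and endothelial cells in the *Csf1r* result was not tested.

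*Csf1* was a low transcript that went the other way. The CPM were 11.5, 6.25 and 8.17 in monocytes (8.66 ± 2.68, n = 3) and 7.59, 8.78, 7.16 and 7.64 in Tim-4-CD4- macrophages (7.79 ± 0.693, n = 4). They were 5.59, 5.16, 5.56 and 5.21 in Tim-4-CD4+ macrophages (5.38 ± 0.226, n = 4) and 5.36, 5.12, 4.87 and 4.68 in Tim-4+CD4+ macrophages (5.01 ± 0.298, n = 4). Every library of the CD4+ populations was below every other library, whereas the monocyte libraries spread across all of the Tim-4-CD4- libraries. Against monocytes the log2 fold change was -0.69 in Tim-4-CD4+ (SE 0.16, edgeR adjusted p = 0.0014) and -0.79 in Tim-4+CD4+ macrophages (SE 0.16, edgeR adjusted p = 0.00042). In Tim-4-CD4- macrophages it was -0.15 (SE 0.17, edgeR adjusted p = 0.43), and without monocyte replicate 1 it was 0.14.

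Within the macrophages, *Csf1* fell by 0.64 on the log2 scale from cells with neither protein to cells with both (SE 0.16, edgeR adjusted p = 0.0065). To cells with CD4 alone it fell by 0.53 (SE 0.16, edgeR adjusted p = 0.038), a call that was lost without any 1 of the 8 libraries compared, with edgeR adjusted p-values from 0.057 to 0.11. It was also lost without monocyte replicate 3 (adjusted p = 0.053) and without Tim-4+CD4+ replicate 2 (adjusted p = 0.052). The ratio of *Csf1r* to *Csf1* reads, taken within each library so that it does not depend on scaling, was 273 ± 77.3 in monocytes and 550.0 ± 36.7, 1149 ± 118 and 1334 ± 58.8 in the 3 macrophage populations (SD, n = 3 or 4).

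**Figure D1:**
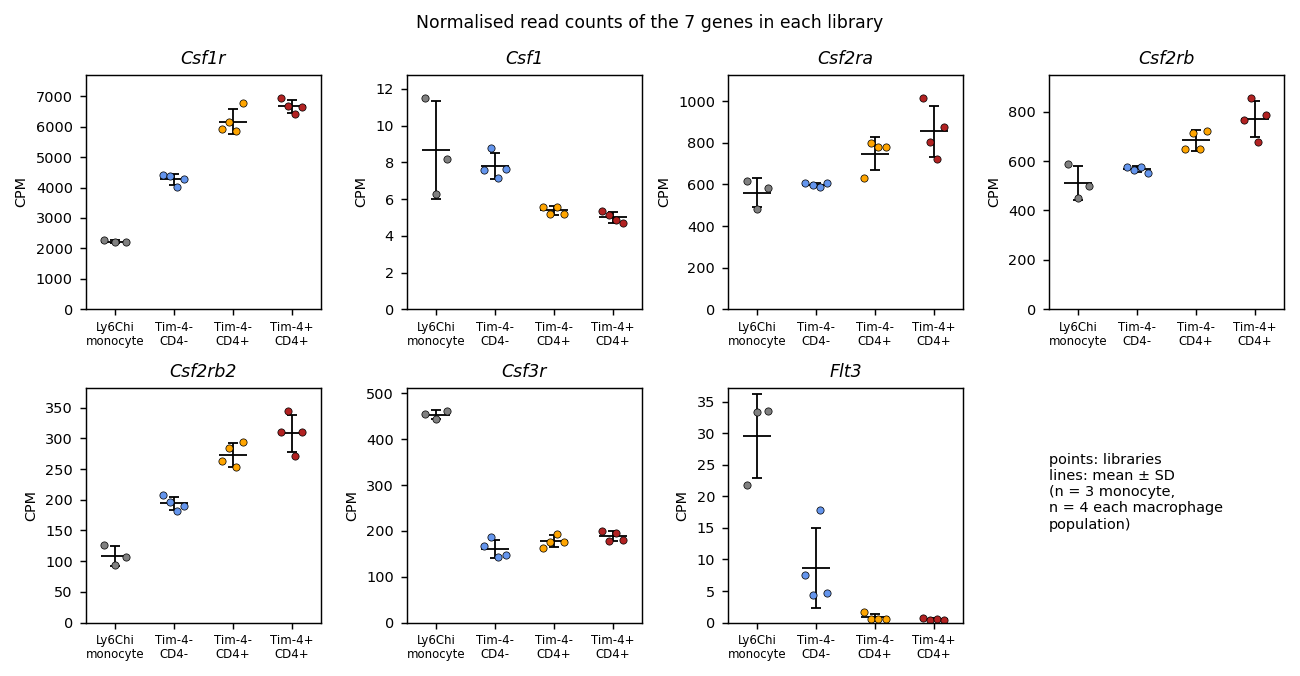
Normalised read counts (CPM, linear axes from 0) of the 7 genes in the 15 libraries. Points are libraries and lines are mean ± SD (n = 3 for monocytes, n = 4 for each macrophage population). *Csf1r*, *Csf2ra*, *Csf2rb* and *Csf2rb2* have their highest mean in Tim-4+CD4+ macrophages, and *Csf1*, *Csf3r* and *Flt3* in monocytes.

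The genes of the GM-CSF receptor, *Csf2ra* and *Csf2rb*, were close to monocyte levels in Tim-4-CD4- macrophages and higher in both CD4+ populations. The CPM of *Csf2ra* were 615, 481 and 584 in monocytes (559.9 ± 70.5, n = 3) and 609, 597, 586 and 605 in Tim-4-CD4- macrophages (599 ± 10.1, n = 4). They were 633, 800.4, 781 and 782 in Tim-4-CD4+ (749 ± 78.0, n = 4) and 1016, 806, 722 and 877 in Tim-4+CD4+ macrophages (855 ± 124, n = 4). The Tim-4-CD4- libraries lay within the range of the monocytes, and every CD4+ library was above both.

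The CPM of *Csf2rb* were 586, 450.2 and 498 in monocytes (511 ± 68.7, n = 3) and 575, 565, 576 and 550.2 in Tim-4-CD4- macrophages (567 ± 12, n = 4). They were 648, 715, 647 and 723 in Tim-4-CD4+ (683 ± 41.6, n = 4) and 767, 855, 677 and 787 in Tim-4+CD4+ macrophages (771 ± 73.1, n = 4). As for the alpha chain, the CD4+ libraries were above all others and overlapped with each other. In edgeR, *Csf2ra* was higher than in monocytes by log2 0.42 in Tim-4-CD4+ (SE 0.12, adjusted p = 0.0051) and 0.61 in Tim-4+CD4+ macrophages (SE 0.12, adjusted p = 0.00025). *Csf2rb* was higher by 0.42 (SE 0.10, edgeR adjusted p = 0.0014) and 0.59 (SE 0.10, edgeR adjusted p = 5.7e-05). In Tim-4-CD4- macrophages the values were 0.10 for *Csf2ra* (SE 0.12, edgeR adjusted p = 0.49) and 0.15 for *Csf2rb* (SE 0.10, edgeR adjusted p = 0.20). Without monocyte replicate 1, the value for *Csf2rb* was 0.28 and passed the threshold (edgeR adjusted p = 0.025).

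Macrophages with both proteins differed from those with neither by log2 0.51 in *Csf2ra* (SE 0.11, edgeR adjusted p = 0.0026) and 0.45 in *Csf2rb* (SE 0.09, edgeR adjusted p = 0.0019). Those with CD4 alone differed from those with neither by 0.32 in *Csf2ra* (SE 0.11, edgeR adjusted p = 0.078) and 0.27 in *Csf2rb* (SE 0.09, edgeR adjusted p = 0.077). Both missed the threshold although no libraries overlapped, and both passed it in DESeq2 (adjusted p = 0.030 and 0.018) and when only these 2 populations were fitted (edgeR adjusted p = 0.017 and 0.012). *Csf2ra* also passed without replicate 1 of Tim-4-CD4+ (edgeR adjusted p = 0.042) or replicate 1 of Tim-4+CD4+ macrophages (adjusted p = 0.032), and *Csf2rb* without monocyte replicate 1 (adjusted p = 0.042).

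*Csf2rb2*, the additional beta chain, rose more steeply than *Csf2rb*. The CPM were 126, 93.1 and 106 in monocytes (108 ± 16.6, n = 3) and 208, 196, 182 and 189.6 in Tim-4-CD4- macrophages (194 ± 11.2, n = 4). They were 263, 284, 253 and 294 in Tim-4-CD4+ (273 ± 19.0, n = 4) and 309.5, 344, 271 and 309.9 in Tim-4+CD4+ macrophages (308 ± 29.8, n = 4). Monocyte, Tim-4-CD4- and CD4+ libraries did not overlap. The fold changes over monocytes were 1.79, 2.53 and 2.85 in the same order of macrophages (log2 0.84, 1.34 and 1.51, SE 0.11 for each, edgeR adjusted p = 4.3e-06, 1.6e-08 and 3.4e-09). Macrophages with CD4 alone exceeded those with neither protein by log2 0.50 (SE 0.10, edgeR adjusted p = 0.0038) and those with both did so by 0.67 (SE 0.10, edgeR adjusted p = 0.00012).

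The balance of the beta chain genes was compared as the ratio of *Csf2rb* to *Csf2rb2* reads within each library. The ratio was 4.65, 4.84 and 4.72 in the monocyte libraries (4.73 ± 0.0947, n = 3) and 2.93 ± 0.171, 2.50 ± 0.0453 and 2.50 ± 0.0264 in the 3 macrophage populations (n = 4 each). The lowest monocyte ratio was thus above the highest macrophage ratio, 3.17. The difference of macrophages from monocytes was -0.85 on the log2 scale (exact permutation test over 455 choices of libraries, two-sided p = 0.0022, the smallest this test can give, adjusted p = 0.0044 over 8 tests). Among the 12 macrophage libraries the ratio also differed by population (exact permutation test over 34650 assignments, p = 0.0057, adjusted p = 0.0091), with every Tim-4-CD4- library, at 2.76 or more, above every CD4+ library, at 2.56 or less. These ratios rest on uniquely mapped reads of genes as alike as the sequences above show.

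The ratio of *Csf2ra* to *Csf2rb* reads, in contrast, had a mean of 1.1 in monocytes and means of 1.06, 1.1 and 1.11 in the 3 macrophage populations, with library values from 0.944 to 1.32. No difference was found by the exact permutation test between macrophages and monocytes (-0.01 on the log2 scale, adjusted p = 0.85) or among the macrophages (adjusted p = 0.85). *Csf1r* rose more than *Csf2rb*, with a ratio of 4.40 ± 0.496 in monocytes and of 7.55 ± 0.369, 9.03 ± 0.325 and 8.70 ± 0.725 in the 3 macrophage populations. This ratio differed between macrophages and monocytes (0.94 on the log2 scale, exact permutation adjusted p = 0.0044) and among the macrophages (exact permutation adjusted p = 0.0097). The ratio of *Csf1r* to *Csf1* differed in both tests as well (1.83 on the log2 scale, exact permutation adjusted p = 0.0044, and among macrophages adjusted p = 0.0028).

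**Figure D2:**
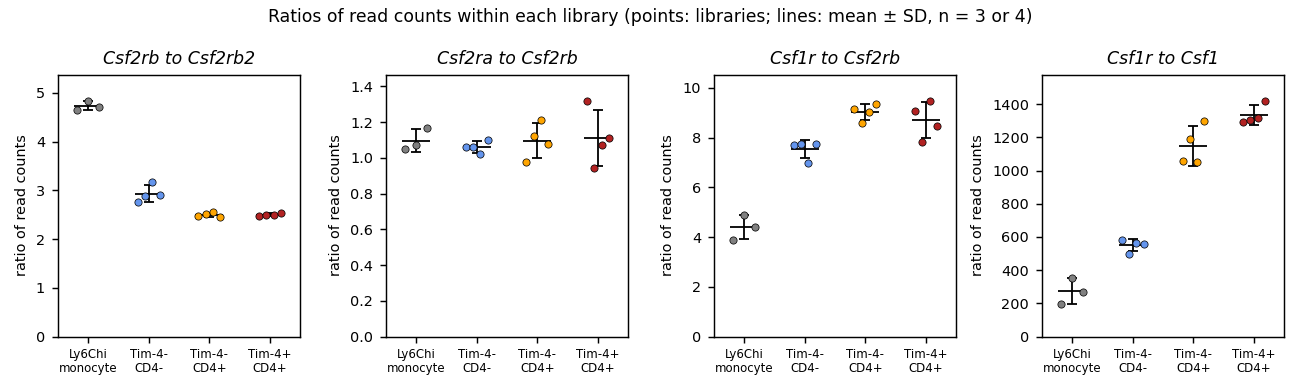
Ratios of read counts of a pair of genes within each library (linear axes from 0). Points are libraries and lines are mean ± SD (n = 3 for monocytes, n = 4 for each macrophage population). The *Csf2rb* to *Csf2rb2* ratio falls from 4.73 in monocytes to 2.50 in CD4+ macrophages, while the *Csf2ra* to *Csf2rb* ratio lies between 0.944 and 1.32 throughout.

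Per kilobase of exon, the order of the receptor genes in Tim-4+CD4+ macrophages was *Csf1r* at 1156 ± 36.8 CPM per kb, *Csf2ra* at 298 ± 43.3, *Csf2rb* at 106 ± 10, *Csf2rb2* at 65.1 ± 6.29, *Csf3r* at 52.3 ± 2.97 and *Flt3* at 0.0926 ± 0.0279 (SD, n = 4). *Csf1* was at 0.948 ± 0.0564 CPM per kb. In monocytes *Csf3r*, at 126 ± 2.52 CPM per kb, stood above *Csf2rb* at 70.3 ± 9.44 and *Csf2rb2* at 22.8 ± 3.50 (n = 3). Read levels are of RNA and give no amount of receptor on the cell surface.

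The 250 bases before the RefSeq start of *Csf2ra* and of *Csf2rb2*, which were both higher in the CD4+ populations than in monocytes, are shown with their matches to GAGGAA, the core of sites bound by PU.1, a transcription factor of myeloid cells (GRCm38.p6). Capitals mark matches to it on either strand, where the reverse strand reads TTCCTC. The *Csf2ra* window is at chr19:61228419-61228668 and that of *Csf2rb2* at chr15:78305722-78305971, both on the reverse strand.
Csf2ra: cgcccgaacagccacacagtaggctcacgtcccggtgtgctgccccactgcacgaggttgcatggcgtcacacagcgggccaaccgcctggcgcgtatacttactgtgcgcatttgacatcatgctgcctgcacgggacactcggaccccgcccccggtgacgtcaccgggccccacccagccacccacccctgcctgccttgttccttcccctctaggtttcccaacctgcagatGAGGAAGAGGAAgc
Csf2rb2: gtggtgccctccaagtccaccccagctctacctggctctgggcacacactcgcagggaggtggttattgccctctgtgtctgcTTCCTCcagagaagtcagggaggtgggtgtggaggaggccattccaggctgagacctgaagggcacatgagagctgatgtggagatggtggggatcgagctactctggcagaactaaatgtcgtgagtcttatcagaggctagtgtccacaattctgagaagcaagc

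The *Csf2ra* window held the letters at 2 places and the *Csf2rb2* and *Csf3r* windows each at 1 place, whereas the windows of *Csf1* and *Flt3* held none. Of all 32851 windows of this length, 23.3% held the motif at least once. Neither TGTGGT, a core read by RUNX factors and found in 14% of windows, nor TTGCNNAA, a form read by C/EBP factors and found in 9.56%, was in any of these 5 windows on either strand. *Spi1*, which encodes PU.1, was lower in the 3 macrophage populations than in monocytes (log2 -0.58, -0.65 and -0.43, edgeR adjusted p = 0.00018, 5.1e-05 and 0.0020). Of the 3 genes whose windows held its core, *Csf3r* was lower in these populations, while *Csf2ra* and *Csf2rb2* were higher in both CD4+ populations. The part of PU.1 in these levels was not tested. A match of letters is not a bound site. Windows for *Csf1r* and *Csf2rb* were not used here.

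*Csf3r* was lower in all 3 macrophage populations than in monocytes and similar among them. The CPM were 456, 444 and 461 in monocytes (454 ± 9.1, n = 3) and 168, 186, 144 and 147 in Tim-4-CD4- macrophages (161 ± 19.3, n = 4). They were 162, 176, 194 and 176 in Tim-4-CD4+ (177 ± 13, n = 4) and 200.4, 178, 195 and 181 in Tim-4+CD4+ macrophages (189 ± 10.7, n = 4). The highest macrophage library, at 200.4, was below the lowest monocyte library, at 444, and the macrophage populations overlapped. The log2 fold changes against monocytes were -1.49, -1.36 and -1.27 in the 3 macrophage populations (SE 0.10 for each, edgeR adjusted p = 6.6e-10, 1.9e-09 and 4.2e-09). Monocytes thus held 2.82, 2.56 and 2.41 times as much. Between macrophages with both proteins and those with neither the value was 0.23 (SE 0.09, edgeR adjusted p = 0.079), which passed the threshold without Tim-4-CD4- replicate 2 (0.31, edgeR adjusted p = 0.022) and in DESeq2 (0.25, adjusted p = 0.036).

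*Csf3r* is also a gene of neutrophils, so the 6 of 10 listed neutrophil markers that the table holds were read beside it. They summed to between 145 and 213 CPM in monocytes and to between 0.307 and 2.63 CPM in macrophages. In monocytes nearly all of this was *Mmp8*, at 186 ± 36.5 CPM, while *Retnlg* was at 0 in every library, *Cxcr2* at 0.199 ± 0.0288, *S100a8* at 1.21 ± 0.582 and *S100a9* at 0.413 ± 0.177 CPM (n = 3). *Retnlg* and *Cxcr2* are defining genes of mature neutrophils. *S100a8* and *S100a9* are abundant in Ly6Chi monocytes as well as in neutrophils, so that counts near 0 are unusual for this population, and the cause was not tested. They can therefore not be read as a sign for or against neutrophils. The part of neutrophils in the *Csf3r* level of monocytes was not tested.

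*Flt3* had the widest span, falling from monocytes to Tim-4-CD4- macrophages and again to both CD4+ populations. The CPM were 21.8, 33.4 and 33.5 in monocytes (29.6 ± 6.71, n = 3) and 7.57, 4.41, 17.9 and 4.76 in Tim-4-CD4- macrophages (8.65 ± 6.31, n = 4). They were 1.61, 0.607, 0.575 and 0.520 in Tim-4-CD4+ (0.83 ± 0.524, n = 4) and 0.798, 0.465, 0.611 and 0.415 in Tim-4+CD4+ macrophages (0.572 ± 0.172, n = 4). The ranges of monocytes, Tim-4-CD4- macrophages and CD4+ macrophages did not overlap, and replicate 3 of Tim-4-CD4- came close to the lowest monocyte library. The CD4+ populations overlapped. In rank per length, *Flt3* went from 6180 of 19421 genes in monocytes to 14427 in Tim-4+CD4+ macrophages.

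Against monocytes, *Flt3* had log2 fold changes of -1.77 in Tim-4-CD4- (SE 0.42, edgeR adjusted p = 0.0016), -5.20 in Tim-4-CD4+ (SE 0.49, edgeR adjusted p = 8.2e-08) and -5.68 in Tim-4+CD4+ macrophages (SE 0.50, edgeR adjusted p = 3.1e-08). Against macrophages with neither protein the values were -3.42 in those with CD4 alone (SE 0.46, edgeR adjusted p = 0.00012) and -3.90 in those with both (SE 0.47, edgeR adjusted p = 1.2e-05), that is 10.7-fold and 15-fold lower. Between the CD4+ populations the value was -0.48 (SE 0.48, edgeR adjusted p = 0.68). Without replicate 3 of the Tim-4-CD4- macrophages, that population differed from monocytes by -2.39 (edgeR adjusted p = 3e-05), and the CD4+ populations differed from it by -2.79 (edgeR adjusted p = 0.00015) and -3.26 (edgeR adjusted p = 9.3e-06).

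Since *Flt3* is a gene of dendritic cells, the 11 listed markers of conventional dendritic cells were read in the same libraries. All 11 were detected in each population, and they summed to between 107 and 161 CPM in monocytes, and in the 3 macrophage populations to between 319.9 and 483, between 313 and 388 and between 289 and 397 CPM. The sum was thus lowest in monocytes, which had the highest *Flt3*, and overlapped among the macrophage populations. In macrophages most of the sum came from a few markers. These were *Dpp4* (103 ± 16.6, 104 ± 17.6 and 93 ± 12.5 CPM), *Kmo* (113 ± 20.6, 142 ± 21.8 and 134 ± 33.1 CPM) and *Batf3* (75 ± 2.88, 69.3 ± 8.93 and 80.1 ± 20.9 CPM). The sum therefore hardly moves with markers of low level, such as *Zbtb46* or *Ccr7*. Single markers differed from the sum. Between macrophages with both proteins and those with neither, 0 of the 11 were higher and 3 were lower (backgrounds 11.3% and 11.9%). They were *Cd209a*, a lectin (log2 -2.33, edgeR adjusted p = 3.5e-05), *Itgae*, the integrin CD103 (-2.12, edgeR adjusted p = 0.0070), and *Ccr7*, which guides dendritic cells to lymph nodes (-1.95, edgeR adjusted p = 0.0097). In macrophages with CD4 alone *Cd209a* (-1.57, edgeR adjusted p = 0.0026) and *Itgae* (-1.72, edgeR adjusted p = 0.045) were lower than in those with neither. Replicate 3 of Tim-4-CD4- had the highest sum of all libraries and was above the other 3 of its population in 7 of the 11 markers, below them in 2 and between them in 2. *Zbtb46*, a transcription factor of conventional dendritic cells, was at 5.30 CPM in that library and between 0.932 and 1.48 in the others. *Itgae* was at 24.7 against 3.21 to 5.43, *Cd209a* at 67.7 against 27.6 to 31.8 and *Ccr7* at 14.3 against 3.43 to 5.86. Without that library, the log2 fold changes between macrophages with both proteins and those with neither were -1.92 for *Cd209a* (edgeR adjusted p = 4.8e-05), -1.05 for *Itgae* (0.048) and -1.36 for *Ccr7* (0.064, no longer past the threshold), and in those with CD4 alone -1.17 for *Cd209a* (0.0076) and -0.65 for *Itgae* (0.34). *Clec9a*, a receptor of cross-presenting dendritic cells, was at 24.7 against 26.9 to 36.2. *Epcam*, an epithelial gene that some dendritic cells also carry, was at 10.8 against 1.42 to 2.51, and *Kit* at 14 against 5.02 to 6.75. The part of dendritic cells in the *Flt3* results was not tested.

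The sum of the blood monocyte markers fell in the same order as *Flt3*. Their 8 genes summed to between 627 and 914, between 117 and 238 and between 59.1 and 99.2 CPM in the 3 macrophage populations. Most of the sum in Tim-4-CD4- macrophages was *Ccr2*, the receptor that guides monocytes out of the marrow. It was at 660.0 ± 106, 84.1 ± 21.6 and 8.39 ± 5.04 CPM in the 3 populations (n = 4). The means of *Fn1* (27.1 ± 6.18, 11.9 ± 5.06 and 15.4 ± 6.29 CPM) and *Vcan* did not follow this order, and those of the other markers did. Against Tim-4-CD4- macrophages, 3 of the 8 were lower and 0 higher with CD4 alone (edgeR, backgrounds 5.53% and 4.52%). With both proteins the numbers were the same (backgrounds 11.9% and 11.3%). *Vcan* and *Ly6c2*, which mark Ly6Chi monocytes, were at 1.15 ± 0.253 and 1.72 ± 0.294 CPM in Tim-4-CD4- macrophages, against 367 ± 128 and 1092 ± 395 CPM in monocytes. The part of blood monocytes in the *Flt3* result was not tested beyond these values.

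**Figure D3:**
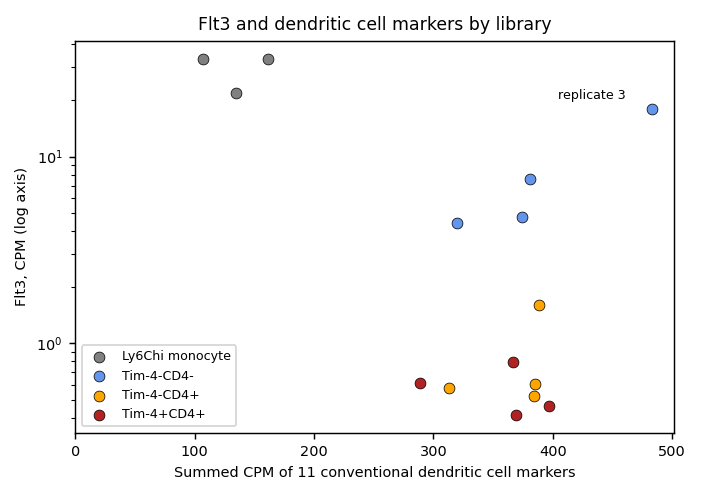
*Flt3* (CPM, log axis) against the summed CPM of 11 conventional dendritic cell markers (linear axis) in each of the 15 libraries, coloured by population. Monocytes lie at the top left, with 107 to 161 CPM of markers, and replicate 3 of Tim-4-CD4- macrophages lies at 17.9 CPM of *Flt3* and 483 CPM of markers. The CD4+ libraries spread from 289 to 397 CPM of markers at an *Flt3* of at most 1.61 CPM. In macrophages most of the sum is *Dpp4*, *Kmo* and *Batf3*.

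Read across the 7 genes, 4 were called in Tim-4-CD4- macrophages against monocytes, where 65.4% of all genes tested were called. Of these, 2 were higher (background 37.3%) and 2 lower (background 28.1%). Against the same monocyte libraries all 7 were called in Tim-4-CD4+ macrophages (background 69.8%), 4 higher (background 39.1%) and 3 lower (background 30.7%). In Tim-4+CD4+ macrophages all 7 were called as well (background 70.9%), 4 higher (background 39.5%) and 3 lower (background 31.3%). With backgrounds of this height, the counts against monocytes do not set these genes apart.

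Among the macrophages fewer genes of any kind were called. Between cells with CD4 alone and cells with neither protein, 4 of the 7 were called against 10.1% of all genes, 2 higher (background 4.52%) and 2 lower (background 5.53%), with a median log2 fold change of 0.27. Between cells with both proteins and the same libraries of cells with neither, 6 were called against 23.1%, 4 higher (background 11.3%) and 2 lower (background 11.9%), with a median of 0.45. Libraries did not overlap for 6 of the 7 genes in each of these comparisons, against 19.1% and 26.4% of all genes tested. Between the CD4+ populations 0 of the 7 were called by edgeR, 0 by DESeq2, and 0 at an unadjusted p under 0.05 (lowest edgeR unadjusted p = 0.074, for *Csf2rb*). There 3.41% of all genes were called, 2.07% higher and 1.34% lower, and the libraries of both populations overlapped for every one of the 7 genes, while 9.63% of all genes did not overlap.

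**Figure D4:**
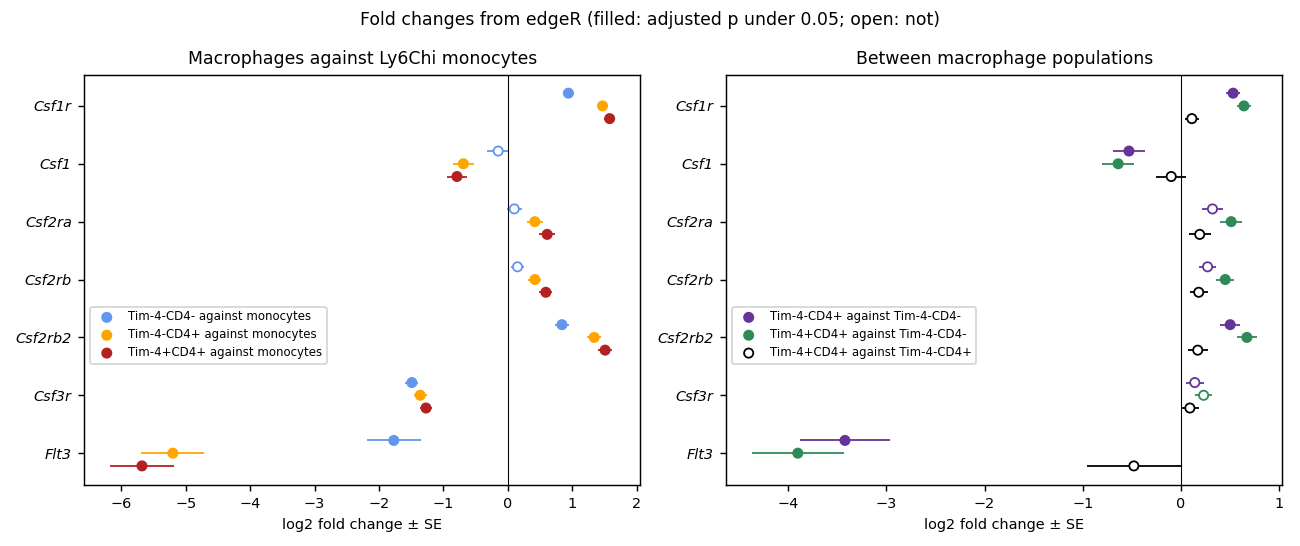
Log2 fold changes (edgeR, bars are SE) of the 7 genes in macrophages against monocytes (left) and between macrophage populations (right). Filled points passed an adjusted p of 0.05 and open points did not. The right panel shows filled points above 0 for 4 receptor genes and below 0 for *Csf1* and *Flt3* in macrophages with both proteins against those with neither, and open points only between the CD4+ populations.

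Other ligands and receptors of the same families were read from a list of 10 genes, of which 8 were in the table and 7 passed the filter on low counts. In each macrophage population edgeR called 5 higher and 2 lower than in monocytes (backgrounds 37.3%, 39.1% and 39.5% higher and 28.1%, 30.7% and 31.3% lower). In Tim-4+CD4+ macrophages 1 of the 5 was *Csf3*. Its mean there was under the floor of 3 reads per library in monocytes, so that it is not shown to be higher. In Tim-4-CD4- macrophages 1 of the 5 was *Csf2*, with 1, 2, 9 and 1 reads in its libraries. Only replicate 3, at 0.194 CPM, was above that floor of 0.0354 CPM. The median log2 fold change was 3.24, 1.96 and 3.09 in the 3 populations, with genes that had no reads in monocytes set at their lower bound (over 6 genes, without *Csf3*, in the last). *Kitl*, the ligand of the related receptor KIT, was at 0.0569 ± 0.0621 CPM in monocytes (1 to 13 reads) and at 40.7 ± 10.5, 46.2 ± 6.21 and 63.2 ± 23.4 CPM in the macrophages. All 8 mesenchymal and endothelial markers were also higher in each macrophage population than in monocytes (edgeR, same backgrounds), where *Col1a1* was at 0.00855 ± 0.00938 CPM. The part of mesenchymal and endothelial cells in the *Kitl* level was not tested. *Kit* was at 0.0445 ± 0.0209 CPM in monocytes (2 to 7 reads) and at 7.74 ± 4.24, 2.93 ± 0.309 and 1.45 ± 0.445 CPM in the macrophages, where the first was 5.65 ± 0.958 CPM without replicate 3 of its population (n = 3). *Kit* is the defining receptor of mast cells. The 4 of 8 listed mast cell markers in the table summed to at most 1.31 CPM in any macrophage library. *Cpa3* was at 0 in all libraries without Tim-4, and the other listed markers of mast cells could not be read. The part of mast cells in the *Kit* level was not tested.

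*Flt3l*, the ligand of FLT3, was at 11.2 ± 0.79 CPM in monocytes and at 5.36 ± 0.71, 5.15 ± 0.69 and 5.15 ± 0.692 CPM in the macrophages (log2 -1.06, -1.12 and -1.12, edgeR adjusted p = 9.5e-06, 4.4e-06 and 4e-06). *Il3ra*, the IL-3 alpha chain, was at 43.3 ± 7.38 CPM in monocytes and at 29.2 ± 4.04, 17.1 ± 4.66 and 17.2 ± 3.22 CPM in the macrophages. It was lower in both CD4+ populations than in Tim-4-CD4- macrophages (log2 -0.77 and -0.76, edgeR adjusted p = 0.0093 and 0.0045), so that it went the opposite way to the beta chain genes. *Il5ra*, the IL-5 alpha chain, had at most 13 reads in any library.

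The remaining ligands were hardly detected. *Il34*, the other ligand of CSF1R, had 0 reads in every monocyte library and 9 to 120 in the macrophage libraries. With monocytes set at a floor of 3 reads per library, it was at least 9.45-fold, 10.6-fold and 20.3-fold higher in the 3 macrophage populations. The part of mesenchymal and endothelial cells in the *Il34* level was not tested. *Csf2*, which encodes GM-CSF, had 0 reads in monocytes and 1 to 28 in the macrophage libraries. *Csf3*, which encodes G-CSF, had 0 reads in monocytes and 11 to 63, 3 to 16 and 0 to 6 in libraries of the 3 macrophage populations. Within the macrophages 0 genes of the list passed the threshold as higher, and *Kit*, *Il3ra* and *Csf3* were lower in cells with both proteins than in cells with neither (*Kit* log2 -2.42, *Csf3* log2 -4.10, edgeR adjusted p = 4e-05 and 0.0032), against 11.9% of all genes. *Kit* and *Il3ra* were also lower in Tim-4-CD4+ macrophages (background 5.53%), and 0 were called between the CD4+ populations. Without replicate 3 of the Tim-4-CD4- macrophages *Kit* differed by -1.96 and -0.95 from cells with neither protein (edgeR adjusted p = 6.4e-05 and 0.035), and the difference of -1.01 between the CD4+ populations passed the threshold (edgeR adjusted p = 0.032). Without replicate 1 of the Tim-4+CD4+ macrophages *Kitl* passed as higher in that population than in cells with neither (0.83, edgeR adjusted p = 0.0091, against 0.63 with all libraries).

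Of 33 kinases, adaptors, STAT proteins and inhibitors that act below these receptors, 7 were higher and 18 lower in Tim-4-CD4- macrophages than in monocytes, with a median log2 fold change of -0.40 against 0.08 for all genes tested (backgrounds 37.3% and 28.1%). In Tim-4-CD4+ macrophages 8 were higher and 17 lower (median -0.34, backgrounds 39.1% and 30.7%), and in Tim-4+CD4+ macrophages 7 were higher and 17 lower (median -0.39, backgrounds 39.5% and 31.3%). In Tim-4+CD4+ macrophages the lowest were *Fgr*, a Src family kinase of myeloid cells (log2 -2.96), and *Plcg2*, a phospholipase used by immune receptors (-1.90). The highest were *Cish*, a feedback inhibitor induced by STAT5 (5.08), and *Src* (8.46, from 0.398 ± 0.167 to 152 ± 21.6 CPM), with edgeR adjusted p-values of at most 2.7e-11 for all 4. The same 4 genes stood at the ends of the list in the other macrophage populations.

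Between macrophages with both proteins and those with neither, 2 of the 33 were higher and 5 lower (median -0.11), near the shares over all genes (11.3% and 11.9%). *Socs3*, which restrains signals of the G-CSF receptor, was lower by log2 -0.91 (993 ± 69.9 against 528 ± 30.1 CPM, edgeR adjusted p = 1.4e-05), and *Stat5a*, a transcription factor used by the GM-CSF receptor, by -0.48 (adjusted p = 0.0003). *Fyn*, a Src family kinase, was higher by 1.35 (adjusted p = 5.2e-07) and *Src* by 0.51 (adjusted p = 0.048). Without replicate 3 of the Tim-4-CD4- macrophages 1 was higher and 3 were lower, and *Src* no longer passed (0.43, edgeR adjusted p = 0.14). Between cells with CD4 alone and cells with neither, 1 was higher (*Fyn*, 0.66) and 3 were lower, among them *Socs3* (-0.78), with a median of -0.07 (backgrounds 4.52% and 5.53%). Without the same library *Fyn* and *Socs3* were still called and the other 2 were not. *Fyn* was the 1 gene called between the CD4+ populations (0.69, edgeR adjusted p = 0.0022, background 2.07% higher).

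Of 13 transcription factors known to act on myeloid growth factor receptor genes, 8 were higher in each macrophage population than in monocytes, and 3, 4 and 5 were lower (medians 0.54, 0.77 and 0.93), with the same backgrounds as above. *Ets2* rose from 11 ± 1.31 CPM in monocytes to 549.5 ± 40.2 CPM in Tim-4+CD4+ macrophages (log2 5.64, edgeR adjusted p = 1.9e-15). *Cebpe*, a factor of granulocyte maturation, was lower by -2.91 at 1.88 ± 0.681 CPM in monocytes, and *Myb*, a factor of progenitors, by -1.92. Between cells with both proteins and cells with neither, *Irf8*, a factor of monocytes and dendritic cells, was higher (0.53, edgeR adjusted p = 0.00019) and *Irf4* lower (-0.67, adjusted p = 0.012), and the other 11 were not called (backgrounds 11.3% and 11.9%). Without replicate 3 of the Tim-4-CD4- macrophages *Irf4* no longer passed (-0.48, edgeR adjusted p = 0.056). *Irf8* was the 1 factor called between cells with CD4 alone and cells with neither (0.31, edgeR adjusted p = 0.025, background 4.52%, and 0.30 with adjusted p = 0.083 without the same library), and 0 were called between the CD4+ populations.

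**Figure D5:**
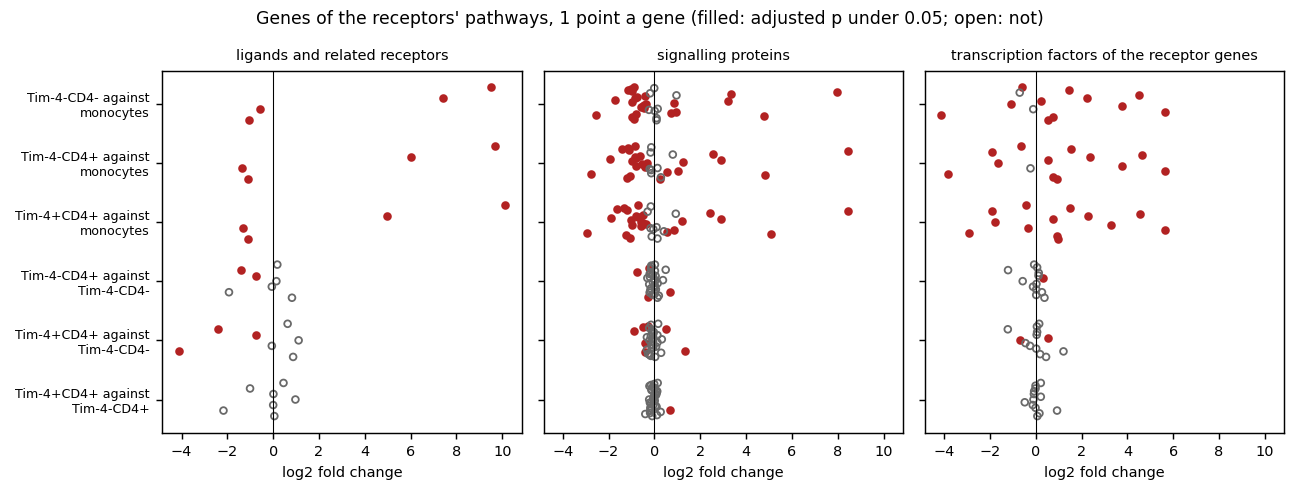
Log2 fold changes (edgeR) of other ligands and related receptors, of signalling proteins and of transcription factors in the 6 comparisons, 1 point a gene. Filled points passed an adjusted p of 0.05 and open points did not. *Il34*, *Csf2* and *Csf3*, which had 0 reads in monocytes, are left out of the comparisons with monocytes. Most filled points lie in the comparisons with monocytes, and 1 of 53 genes tested in the 3 lists, *Fyn*, is filled between the CD4+ populations.

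The genes whose pattern over the 15 libraries was most like each of these genes were found among 11798 genes by the root mean square (RMS) difference of centred log2 CPM, for the 4 genes whose population means spanned at least 1 on the log2 scale. The nearest to *Csf1r* were *Csf2rb2* and *Tpp1*, a lysosomal peptidase, both with an RMS difference of 0.10, and *Csf1r* was in turn the nearest to *Csf2rb2*. *Tpp1* was at 112 ± 3.05 CPM in monocytes and 247 ± 13.7, 342 ± 14.3 and 377 ± 20.5 CPM in the 3 macrophage populations. The other neighbour of *Csf2rb2* was *Cwc25*, a splicing factor (0.13). The nearest to *Csf3r* were *Tnfaip8l2* and *Atp6v1b2*, a subunit of the proton pump of lysosomes (both 0.13). The nearest to *Flt3* were *St3gal5*, a sialyltransferase (0.39), and *Ass1*, an enzyme of arginine synthesis (0.69). *St3gal5* was at 16.1 ± 3.13 CPM in monocytes and at 5.70 ± 1.28, 0.502 ± 0.316 and 0.347 ± 0.0527 CPM in the macrophages. All of these libraries share the same populations, so that likeness follows first from the population means.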

How the data were processed

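RNA was measured by strand-specific mRNA sequencing in 15 libraries of 4 sorted populations, grouped by their deposited titles. The authors trimmed reads with Trimmomatic 0.36, aligned them with STAR to GRCm38.p4 and deposited raw counts, not normalized, of the uniquely mapped reads on each GENCODE vM11 gene from HTSeq 0.6.1p1. The strand setting is not given in the sources used here. The same counts divided by 1 size factor per library were also deposited and not used. The lowest total of a gene over all libraries was 16 reads. Symbols, lengths and coordinates were taken from GENCODE vM21 (GRCm38), which matched 19421 of 19456 identifiers, and promoters from RefSeq (GRCm38.p6).

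Counts were tested with the quasi-likelihood test of edgeR 4.0.16 (R 4.3.3) after TMM scaling and filterByExpr by population, in a single fit over all libraries with 6 contrasts, Benjamini-Hochberg adjustment over 15802 genes in each and a threshold of 0.05. SE is the log2 fold change divided by the root of F. CPM are scaled by TMM. Log2 CPM used a prior count of 2. Ratios of reads within libraries, with a prior of 0.5 reads on the log2 scale, were tested with exact two-sided permutation tests over libraries, adjusted over 8 tests. These permutation tests took the libraries as unpaired and were not repeated with a block. Where nothing says otherwise, replicates are separate sorts, and p-values measure the spread between these. No pair of replicates agreed within sampling noise. In simulated data for Tim-4+CD4+ against Tim-4-CD4- with 15366 genes tested, 59.7% of 1.5-fold and 100% of 2-fold changes were recovered, and 14 of 187 calls were false. The simulation gave every gene the same dispersion (spread between replicates beyond counting error) of 0.02 and changed only genes above a minimum of reads. Its recovery therefore does not hold for genes with few reads or a wider spread, such as *Flt3*. Floors of 3 reads cover counting error only.

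The 7 genes and the gene lists were chosen with earlier results of these data known. Named genes are the 7, the listed genes with the lowest and highest log2 fold change past the threshold (at most 4 per list and comparison), genes of the lists where reported, and the 2 most alike genes. One listed gene that this rule names is not reported here. Alternatives were DESeq2 1.42.0, other scaling, other filters, only the populations compared, a replicate block, no prior count in ratios and leaving out each library. Sequences were aligned with Biopython 1.88. Figures used matplotlib 3.10.9.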

Additional observations from a re-analysis of the deposited data

Results flagged for a closer look

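In each of the 21 sets of 4 macrophage libraries (7 genes in 3 populations), the highest and the lowest library were compared with the others by Dixon's ratio, the gap to the nearest library over the whole range (critical value at the 95% level for 4 libraries). The 2 values that exceeded it were both in replicate 1 of Tim-4-CD4+ macrophages, and chance alone gives about 1 in 20 sets. *Csf2ra* was at 633 CPM there against 781 to 800.4 in the other libraries of the population (ratio 0.883). *Flt3* was at 1.61 CPM against 0.520 to 0.607 (ratio 0.92).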

How the results depend on the processing

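In all 23 alternatives, the numbers of these genes called against monocytes were 4 to 5 in Tim-4-CD4- and 7 in both CD4+ populations, and 0 between the CD4+ populations. Against Tim-4-CD4- macrophages the number was 3 to 6 in those with CD4 alone and 6 to 7 in those with both proteins. Of 966 fold changes of single genes under an alternative, 939 kept their direction and side of the threshold, 13 passed it only there, 12 missed it only there and 2 changed sign: *Csf1* in Tim-4-CD4- against monocytes was 0.14 without monocyte replicate 1 (leave-one-out range -0.32 to 0.14), and *Flt3* between the CD4+ populations was 0.05 without Tim-4-CD4+ replicate 1 (range -0.69 to 0.05). All 12 that missed it were *Csf1* in Tim-4-CD4+ against Tim-4-CD4- macrophages, which with all genes that had at least 1 count gave an adjusted p of 0.059. *Csf3r* in Tim-4+CD4+ against Tim-4-CD4- macrophages also passed with upper-quartile scaling (edgeR adjusted p = 0.038) and with genes of at least 1 CPM (0.040), where *Csf2rb* passed in Tim-4-CD4+ against Tim-4-CD4- (0.047). The *Csf2ra* to *Csf2rb* ratio, not past the threshold, changed sign in leave-one-out: its difference ranged from -0.05 to 0.03 between macrophages and monocytes (0.03 without monocyte replicate 3, 0.0 without Tim-4+CD4+ replicate 2) and from -0.03 to 0.14 between macrophages with both proteins and those with neither. The cause was not tested.

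The titles and the descriptions number the Tim-4-CD4+ libraries differently. Deviations of same-numbered libraries correlated at -0.123 to 0.134 by titles and -0.0888 to 0.161 by descriptions, so that not every pair was over 0.1 by either, and the libraries were not treated as paired. Of 24 comparisons of a macrophage library with another population, 6 were highest for its own number by titles and 11 by descriptions, where chance gives 6. Number 4 by descriptions correlated at 0.128 to 0.161 in all 3 comparisons. This is a hint from the data, and the sources used here do not say which libraries shared a sort. With a replicate block by titles, *Csf1* in Tim-4-CD4+ against Tim-4-CD4- macrophages had a log2 fold change of -0.54 (edgeR adjusted p = 0.055), so that 3 genes were called there instead of 4, and no other call changed with either block. Depth limits *Flt3* in the CD4+ populations and the ligands with few reads. Leaving out replicate 3 of Tim-4-CD4- and replicate 1 of Tim-4+CD4+ macrophages was tried for the listed genes after the data were seen.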
